A study of Homo sapiens with 5 samples.

Results

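Plasmin is the serine protease that dissolves fibrin and opens extracellular matrix, and it is cut from plasminogen by tissue-type activator (PLAT) or by urokinase (PLAU), which the receptor PLAUR holds at the cell surface. Serpins such as SERPINB2 and SERPINE2 trap these proteases, while TFPI2 and TFPI are inhibitors of the Kunitz type and not serpins: TFPI2 acts on plasmin and other serine proteases in the matrix, and TFPI blocks the tissue factor complex that starts coagulation. In the ovary the system is best known from rats, where granulosa cells secrete plasminogen activator before ovulation. The 7 genes PLAT, PLAU, PLAUR, SERPINE2, SERPINB2, TFPI2 and TFPI were taken by gene name from the deposited estimated counts, out of 35453 gene names, and all 7 were found.

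The cells were KGN, an established line from a human granulosa cell tumour, so the values describe 1 tumour line and not follicles. The groups were FSH at 100 ng/mL, forskolin (FSK, which raises cAMP and is labelled a PKA activator), SC79 at 4 µg/mL (labelled a PKB activator), phorbol myristate acetate (PMA, labelled a PKC activator) and a control that received ethanol per the written protocol and is titled as untreated. The labels give 10 mmol/L for FSK and 0.1 mmol/L for PMA, while a character from a symbol font stands before mol in the written protocol for both, so the prefix of these doses is uncertain. Every group, the control included, also received androstenedione at 100 nmol/L during the 24 h of treatment, in medium stripped with charcoal. Polyadenylated RNA from 3 cultures of different weeks was pooled into 1 library per group.

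Library totals ran from 50253128 to 58849719 estimated counts. With 1 library per group there is no replicate error and no p-value, and a bracketed range is an exact 95% binomial interval (Clopper-Pearson) that covers counting error only. Scaled counts are estimated counts adjusted for library size, and a gene was compared where the higher library reached 100 of them, and called different from 2-fold upward. In bulk RNA, fewer cells of a type and less RNA per cell cannot be told apart. Of 12 granulosa markers, 11 reached 100 scaled counts in at least 1 library, with FOXL2 at 5458 to 10392, while WT1 was at most 1.06 counts. The granulosa list summed to 26275 to 70255 scaled counts over the libraries. The 4 stroma markers summed to 309574 to 790611 counts, above the granulosa list in every library and most of it COL1A1, a collagen chain, while the 4 epithelial markers summed to 3737 to 7573. Theca markers summed to at most 28.3 counts, oocyte markers to at most 45.0, and CD3E of T cells was at 0 in every library.

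FSK and PMA libraries differed from control by more than 2-fold in most of the 7 genes. In PLAT, PLAU and SERPINE2 they lay on opposite sides of control, past 2-fold on both sides only in PLAT. With FSH and with SC79, 0 of the 6 members compared passed 2-fold. Few genes did: 0.305% were higher and 0.104% lower with FSH, and 0.224% and 0.0401% with SC79. SERPINB2 was under the count minimum in both comparisons. SERPINB2 and TFPI2 had the widest spans over the libraries, 321-fold and 109-fold between the highest and the lowest, and TFPI had the narrowest at 2.76-fold.

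**Figure D1:**
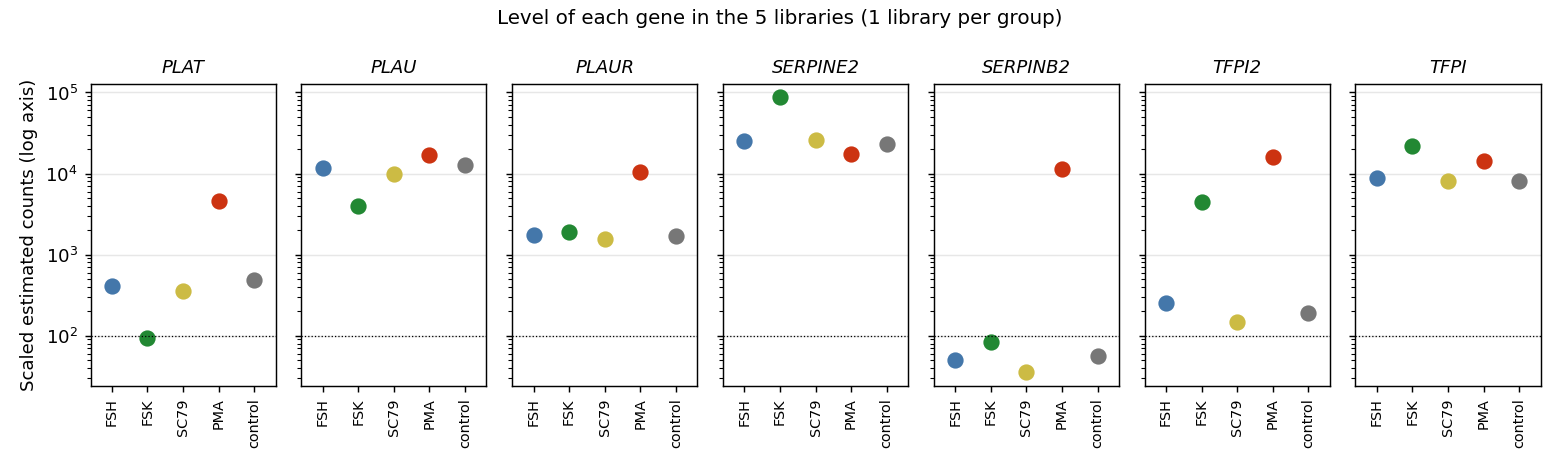
Scaled estimated counts (log axis) of the 7 genes in the FSH, FSK, SC79, PMA and control libraries, 1 point per library, with a dotted line at 100 counts. PMA is the highest library for PLAT, PLAU, PLAUR, SERPINB2 and TFPI2, and FSK is the highest for SERPINE2 and TFPI.

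Promoter sequences are shown for SERPINB2, TFPI2 and PLAUR, which are among the 4 members past 2-fold with PMA. They were picked because their RefSeq windows (GRCh38.p14) each match a short pattern. In the 250 bases before the RefSeq start, TGANTCA was found once each for SERPINB2, TFPI2 and PLAUR. This pattern is TGAGTCA, the AP-1 element through which phorbol esters are known to act on many genes, with any base allowed as its middle letter. Of the windows searched, only that of PLAUR held TGAGTCA itself. TGANTCA was not found in the windows of PLAU, SERPINE2 or TFPI, and PLAT was not searched. Both SERPINE2 windows belong to RefSeq starts that lie 648 and 7810 bases downstream of the start of the most abundant SERPINE2 transcript, so the bases before that start were not searched. Of 35116 such windows in the RefSeq table, 6.57% held TGANTCA on either strand. The stretches of 27 bases around the match are printed 5′ to 3′ on the gene's strand, with the matching letters in capitals.
SERPINB2, chr18:63887593-63887619, plus strand: agtaaaatgtTGAATCActcaaaggac
TFPI2, chr7:93890824-93890850, minus strand: tccccgtgcaTGAATCAgccacccctc
PLAUR, chr19:43670339-43670365, minus strand: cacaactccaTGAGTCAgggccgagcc
The match starts 102 bases before the RefSeq start in SERPINB2, 87 bases before it in TFPI2 and 186 bases before it in PLAUR. In SERPINB2 and TFPI2 the letters are TGAATCA, and in PLAUR they are TGAGTCA, which 4.20% of all windows hold on either strand. The cAMP element TGACGTCA was not found in any window searched for these 6 genes, against 1.65% of all windows. The shorter TGACG, which lies within TGACGTCA, was not found in them either, against 21.2% of all windows. SERPINB2 is the member with the largest PMA ratio, and its whole window of 250 bases follows.
SERPINB2, chr18:63887455-63887704, plus strand: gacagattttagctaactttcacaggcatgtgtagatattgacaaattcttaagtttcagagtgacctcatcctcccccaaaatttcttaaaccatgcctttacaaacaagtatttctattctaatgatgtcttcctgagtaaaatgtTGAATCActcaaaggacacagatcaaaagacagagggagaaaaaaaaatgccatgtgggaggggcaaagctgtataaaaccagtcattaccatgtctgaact
This window also holds TATAAA 30 bases before the RefSeq start, a word that 10.7% of all windows hold on either strand. These matches are descriptions of letters, and binding was not measured. The RefSeq start lies 238 bases downstream of the start of the most abundant TFPI2 transcript in GENCODE release 29, 181 bases downstream in PLAUR and 5 bases downstream in SERPINB2. The TFPI2 match therefore lies inside the most abundant TFPI2 transcript, and the PLAUR match spans the start of the most abundant PLAUR transcript.

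PLAT (ENSG00000104368, chromosome 8, 42175233 to 42207724, minus strand, GRCh38) encodes tissue-type plasminogen activator, the secreted form that works best on fibrin. It had 406 scaled counts with FSH, 94.2 with FSK, 360.3 with SC79, 4613 with PMA and 480.2 in control. The PMA library stood far above and the FSK library far below the others. The PMA over control fold was 9.61 [8.77 to 10.5] and the FSK over control fold was 0.196 [0.155 to 0.246], which is a log2 ratio of -2.34. The SC79 over control fold was 0.750 [0.652 to 0.861] and the FSH fold 0.845 [0.741 to 0.964].

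PLAU (ENSG00000122861, chromosome 10, 73909177 to 73917497, plus strand) encodes urokinase, the activator that works mainly at cell surfaces. It had 11676 scaled counts with FSH, 4032 with FSK, 9954 with SC79, 16855 with PMA and 12759.7 in control. It was lower with FSK, at a fold of 0.316 [0.305 to 0.328]. With PMA the fold was 1.32 [1.29 to 1.35], under the 2-fold limit, and with SC79 it was 0.780 [0.760 to 0.801]. A share of 24.1% of the 31-base words of PLAU is also found, on the opposite strand, in C10orf55, which overlaps it. Strand use in counting is not given in the sources used here, so reads of the pair cannot be told apart, but the counts assigned to C10orf55 were at most 0.76% of those of PLAU in any library.

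PLAUR (ENSG00000011422, chromosome 19, 43646095 to 43670547, minus strand) encodes the urokinase receptor. It had 1727 scaled counts with FSH, 1882 with FSK, 1574 with SC79, 10494 with PMA and 1701 in control. The PMA library alone stood apart, at a fold of 6.17 [5.87 to 6.48] over control. The FSK fold was 1.11 [1.04 to 1.18] and the FSH interval of 0.950 to 1.08-fold includes no difference.

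SERPINE2 (ENSG00000135919, chromosome 2, 223975112 to 224039319, minus strand) encodes protease nexin-1, a serpin that inhibits thrombin, urokinase and plasmin. It had 24958 scaled counts with FSH, 86986 with FSK, 25657 with SC79, 17324 with PMA and 23077 in control. FSK was the high library, at 3.77-fold [3.72 to 3.82] over control, and PMA the low library, at a fold of 0.751 [0.736 to 0.765]. FSK and PMA thus lay on opposite sides of control, as in PLAT and PLAU but with the sign turned round, and only FSK passed 2-fold.

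SERPINB2 (ENSG00000197632, chromosome 18, 63871692 to 63903890, plus strand) encodes plasminogen activator inhibitor type 2, a serpin that binds urokinase and is held largely inside cells. It had 49.98 scaled counts with FSH, 83.7 with FSK, 35.7 with SC79, 11472 with PMA and 56.9 in control. PMA over control was 202-fold [157 to 263], and the PMA library is the only library in which the gene reached 100 counts. In the other comparisons with control it was therefore not compared by the 2-fold rule: the FSK fold was 1.47 [1.04 to 2.08], the SC79 fold 0.628 [0.404 to 0.976] and the FSH fold 0.878 [0.593 to 1.30]. A share of 18.9% of its 31-base words is also found in SERPINB10 on the same strand. SERPINB10 had at most 8.63 scaled counts in any library, and these were at most 11.7% of those of SERPINB2.

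TFPI2 (ENSG00000105825, chromosome 7, 93885396 to 93890991, minus strand) encodes the matrix-bound Kunitz inhibitor. It had 249.9 scaled counts with FSH, 4507 with FSK, 147 with SC79, 16104 with PMA and 191 in control. TFPI2 was the only member past 2-fold on the high side with both FSK and PMA, at 23.6-fold [20.5 to 27.3] for FSK and 84.3-fold [73.5 to 97.2] for PMA over control. FSH over control was 1.31-fold [1.08 to 1.58] and SC79 0.771-fold [0.618 to 0.960], both within the 2-fold limit. GNGT1, which overlaps TFPI2 on the opposite strand, had at most 3.31 scaled counts in any library. The annotated neighbours AC002076.1 at TFPI2, RN7SL368P at PLAUR and AC007319.1 at TFPI were not found by name among the deposited counts.

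TFPI (ENSG00000003436, chromosome 2, 187464230 to 187565760, minus strand) encodes the inhibitor of the tissue factor complex. It had 8776 scaled counts with FSH, 22056 with FSK, 8143 with SC79, 14343 with PMA and 7993 in control. FSK over control was 2.76-fold [2.69 to 2.83], past the limit, and PMA over control was 1.79-fold [1.75 to 1.84], short of it. The SC79 interval of 0.988 to 1.05-fold includes no difference, and the FSH fold was 1.098 [1.07 to 1.13].

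**Figure D2:**
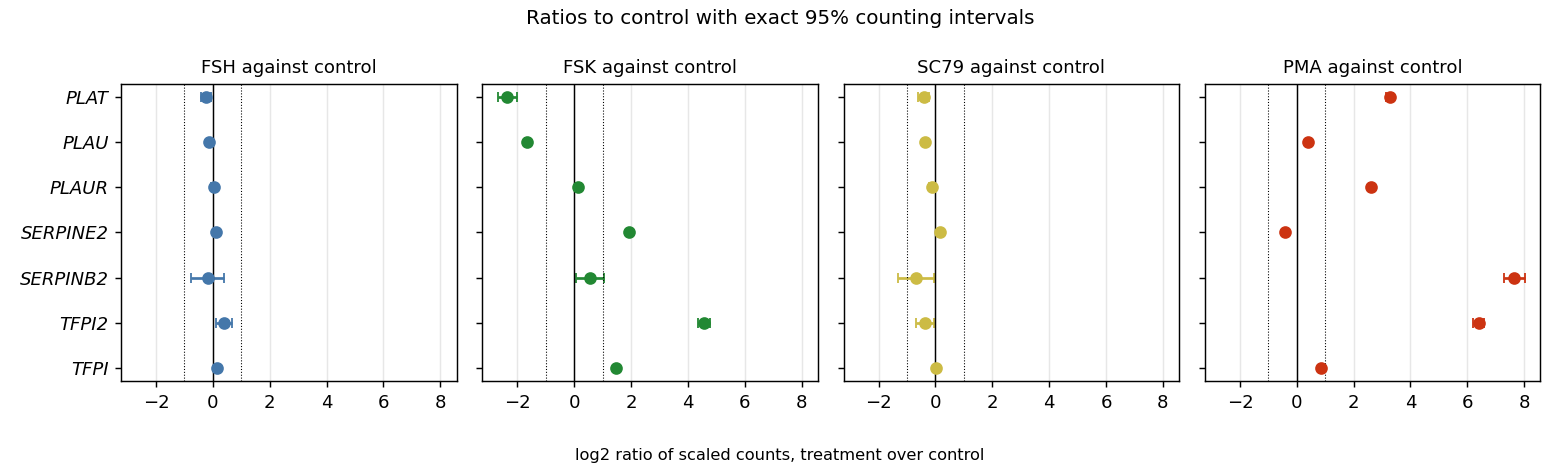
Log2 ratios of scaled counts, treatment over control, for the 7 genes in the FSH, FSK, SC79 and PMA libraries. Points are ratios without a pseudocount, bars are exact 95% counting intervals, and dotted lines mark 2-fold; with FSK, PLAT and PLAU lie left of the lower line, and with PMA 4 genes lie right of the upper line.

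The FSK comparison asks what a rise in cAMP does to this system. Both plasminogen activators were lower and 3 inhibitors were higher: PLAT and PLAU were past the 2-fold limit on the low side at log2 ratios of -2.34 and -1.66, while TFPI2, SERPINE2 and TFPI were past it at 4.55, 1.91 and 1.46. Of the 6 members with at least 100 counts in either library, 3 were at least 2-fold higher, where 4.13% of all 12610 genes compared were, and 2 were at least 2-fold lower, where 5.43% were. PLAUR, the receptor, was at 0.15. The median log2 ratio of the 6 members compared was 0.80, beside 0.01 over all genes compared. A share of 0.119% of the genes had a higher FSK ratio than TFPI2, 1.36% a higher one than SERPINE2 and 2.35% a higher one than TFPI. At the other end, 0.841% of the genes had a lower ratio than PLAT and 2.05% a lower one than PLAU. Cell markers also differed in the FSK library. The granulosa list summed to 70255 scaled counts with FSK and 31562 in control, with 5 of 11 markers compared at least 2-fold higher, among them CYP19A1, the aromatase, at a log2 ratio of 4.93. Against control, 11 granulosa markers were compared with FSK and 8 with PMA. Some of the 11 thus met the count minimum only through the FSK library. Of the epithelial list 1 of 2 markers compared, KRT19, was at least 2-fold lower with FSK, at -1.89. The part of these markers in the FSK result was not tested.

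The PMA comparison asks the same of protein kinase C. PLAT, PLAUR, SERPINB2 and TFPI2 were higher, so 1 activator, the receptor and 2 inhibitors moved the same way. These 4 of 7 members stand against 3.64% of the 12648 genes compared that were at least 2-fold higher, and 0 of 7 members against 3.62% that were at least 2-fold lower. The median of the 7 log2 ratios was 2.62, against -0.01 over all genes compared. SERPINB2 is counted in the 4, in the 7 and in this median. It met the count minimum only through the PMA library, where it was high. A share of 0.0395% of the genes had a higher PMA ratio than SERPINB2, 0.0791% a higher one than TFPI2, 0.403% a higher one than PLAT and 0.696% a higher one than PLAUR. In the same library markers of other cells differed in both directions. The 4 endothelial markers summed to 905 scaled counts with PMA and to 188 to 212 in the other libraries. Of the 4, 2 were compared against control and both were at least 2-fold higher. CDH5, a defining one, was under the count minimum, at 1.98 counts with PMA and 0 in control. The 4 immune markers summed to 2226 counts with PMA and to 841 to 1118 in the others. Of the 4, only CD68 was compared, and it was at least 2-fold higher. PTPRC, which leukocytes carry, was at 37.6 counts with PMA and 37.7 in control. The stroma list summed to 309574 counts with PMA and 788433 in control, with 1 of 3 markers compared, COL1A1, at least 2-fold lower. The epithelial list summed to 4391 counts with PMA and 7573 in control, with 1 of 2 compared, KRT19, at least 2-fold lower. Of the granulosa list 1 of 8 compared, INHBA, was at least 2-fold higher with PMA. The part of these markers in the PMA result was not tested.

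**Figure D3:**
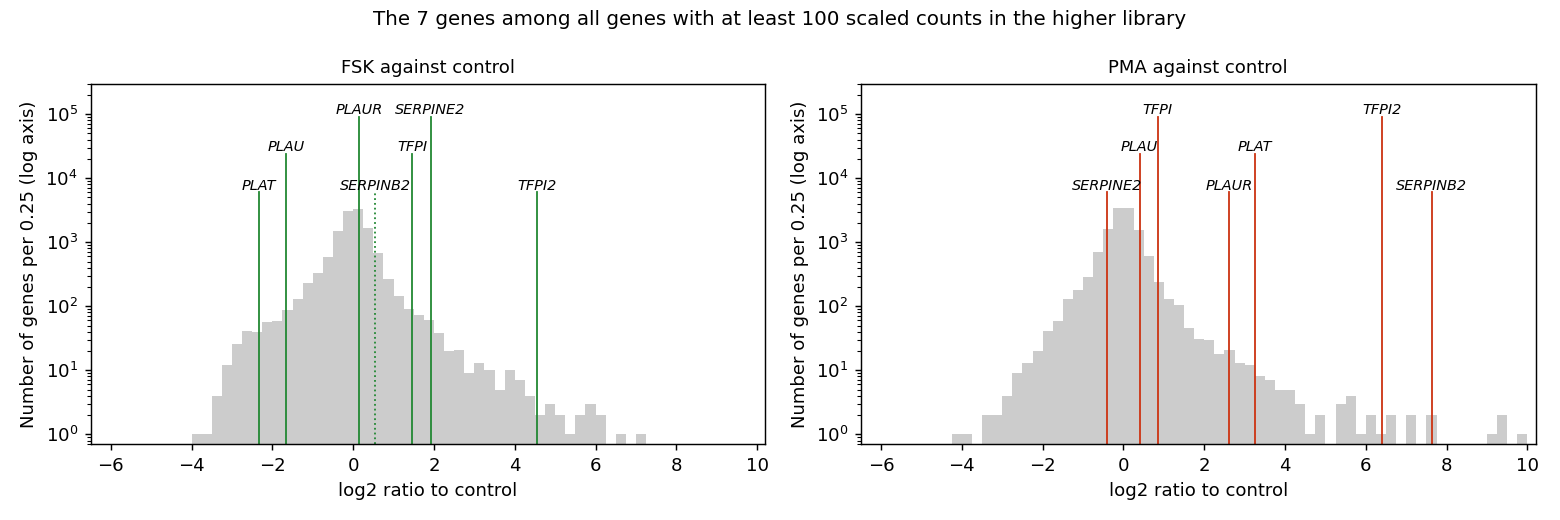
Number of genes (log axis) per 0.25 of log2 ratio to control for FSK and for PMA, over genes that reached 100 scaled counts in either library, with the 7 genes as vertical lines at their own ratios. SERPINB2 in the FSK panel is dotted since it did not reach 100 counts there; with PMA, SERPINB2 and TFPI2 lie at 7.63 and 6.39, in the sparse upper tail.

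The FSH comparison asks whether the hormone itself moves these genes. No member passed 2-fold: 0 of 6 members compared were higher, where 0.305% of 12473 genes were, and 0 were lower, where 0.104% were. The log2 ratios ran from -0.24 for PLAT to 0.39 for TFPI2, with a median of 0.07 over the 6 members compared. The SC79 comparison, which concerns AKT, also had 0 of 6 members higher, where 0.224% of 12484 genes were, and 0 lower, where 0.0401% were. The log2 ratios with SC79 ran from -0.66 for SERPINB2, a gene below the count minimum there, to 0.15 for SERPINE2, and 5 of 7 lay below 0. At 1.5-fold in either direction the counts were still 0 of 6 for FSH, where 1.03% of all genes passed, and 0 of 6 for SC79, where 1.11% did. These counts of 0 lie near the shares over all genes, so they do not set the members apart. For FSK the count at 1.5-fold was 5 of 6, beside 19.9% of all genes, and for PMA it was 5 of 7, beside 17.4%, with TFPI added to those past 2-fold.

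FSK was also set directly against FSH, since both act through cAMP. The same 5 genes passed 2-fold as against control. TFPI2 was 18.0-fold [15.9 to 20.6] higher with FSK than with FSH, SERPINE2 3.49-fold [3.44 to 3.54] and TFPI 2.51-fold [2.45 to 2.58], while PLAT had a fold of 0.232 [0.183 to 0.292] and PLAU of 0.345 [0.333 to 0.358]. These are 3 of 6 members higher, where 3.31% of 12609 genes were, and 2 of 6 lower, where 4.52% were. At 1.5-fold 5 of 6 members passed, beside 17.3% of all genes. PLAUR, at 1.09-fold [1.02 to 1.17], was well within 2-fold.

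PMA against FSK gave the widest contrasts for the activators. PLAT had 4613 scaled counts with PMA against 94.2 with FSK, 48.99-fold apart [39.8 to 61.0], and PLAU had 16855 and 4032, 4.18-fold apart [4.04 to 4.33]. SERPINB2 was 137-fold [110 to 173] higher with PMA, PLAUR 5.57-fold [5.30 to 5.86] and TFPI2 3.57-fold [3.45 to 3.70]. SERPINE2 was the reverse, with a PMA over FSK fold of 0.199 [0.196 to 0.202]. Of the 7 members, 5 were at least 2-fold higher with PMA, where 5.8% of 12696 genes were, and 1 was lower, where 5.13% were. SERPINB2 and PLAT, both among the 5, met the count minimum in this comparison only through the PMA library. TFPI, at a fold of 0.650 [0.637 to 0.664], passed only the 1.5-fold limit, which all 7 members passed beside 22.4% of all genes.

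The tables are per transcript, and 13 transcripts of the 7 genes held at least 10% of their gene's counts in a library. In each library 1 coding length held most of SERPINE2, PLAU and TFPI. The SERPINE2 transcript of 397 codons, ENST00000409304.5, held 82.4% of the gene with FSH, 82.9% with FSK, 81.3% with SC79, 81.7% with PMA and 83.6% in control. The PLAU transcript of 431 codons, ENST00000372764.3, held 90.3% with FSH, 90.5% with FSK, 87.1% with SC79, 88.1% with PMA and 87.0% in control. TFPI transcripts of 304 codons, the length of the alpha form with all its Kunitz domains, held 86.8% of TFPI with FSH, 90.3% with FSK, 86.4% with SC79, 87.9% with PMA and 87.8% in control. Transcripts of 251 codons, the length of the membrane-anchored beta form, held 4.19% with FSH, 4.00% with FSK, 5.57% with SC79, 4.89% with PMA and 4.28% in control. The alpha and beta lengths of TFPI were thus both more abundant with FSK, at 19906 scaled counts against 7016 in control for alpha and 883 against 342 in control for beta.

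Shares in PLAT, TFPI2 and PLAUR varied more. Transcripts of 562 codons held from 66.1% of PLAT with FSK to 92.8% with PMA. The 235-codon transcript held from 75.5% of TFPI2 with SC79 to 95.4% in control. The low ends rest on 94.2 scaled counts of PLAT and 147 of TFPI2. The transcript of 335 codons, ENST00000340093.7, held 67.0% of PLAUR with FSH, 69.0% with FSK, 62.5% with SC79, 73.0% with PMA and 74.6% in control, and the transcript of 281 codons, ENST00000339082.7, held 20.9%, 20.4%, 18.3%, 14.3% and 14.6% in the same libraries. With PMA both were higher by the same log2 ratio of 2.59. With FSK the 281-codon transcript was at a log2 ratio of 0.63 and the 335-codon transcript at 0.03. PLAT's full-length transcript of 562 codons, ENST00000220809.8, had log2 ratios of -2.69 with FSK and 3.34 with PMA, and the transcript of 516 codons, ENST00000352041.7, -2.15 and 2.66. In TFPI2 the 235-codon transcript, ENST00000222543.9, had log2 ratios of 4.49 with FSK and 6.27 with PMA, and the transcript of 107 codons, ENST00000451238.1, 5.15 and 7.20 from 8.49 counts in control. Error in assigning reads between transcripts of a gene is not in these values.

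**Figure D4:**
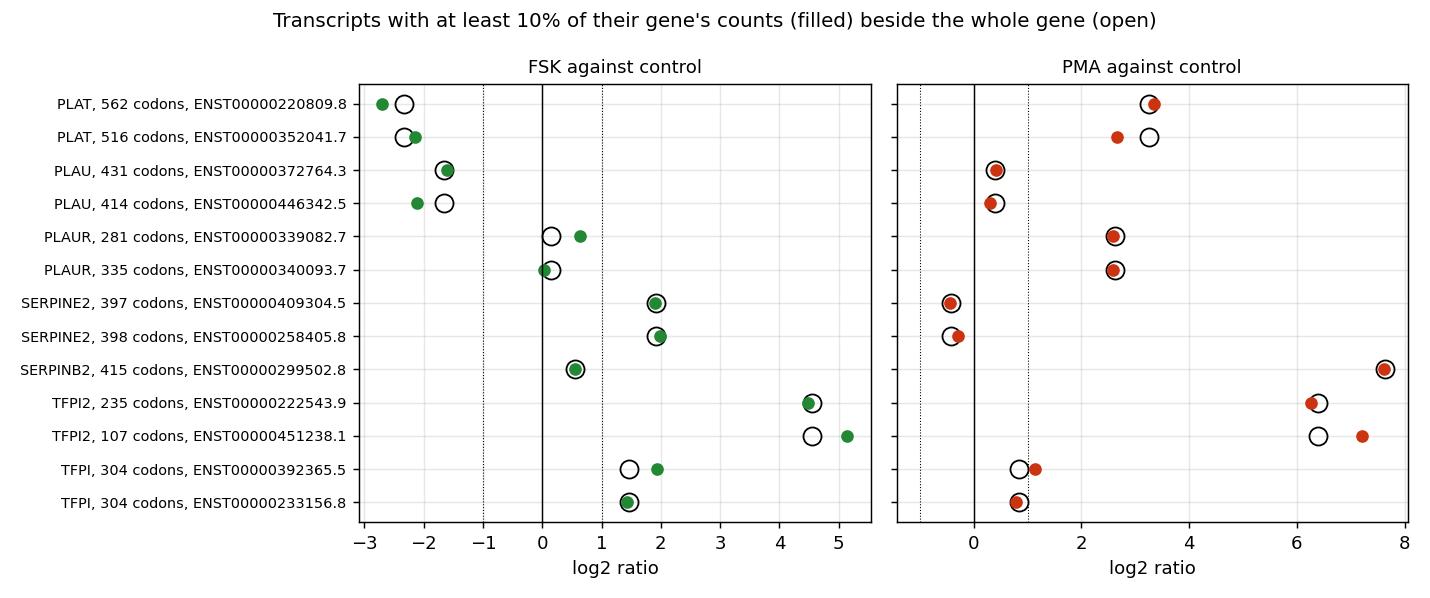
Log2 ratios to control of the 13 transcripts with at least 10% of their gene's counts (filled) and of the whole gene (open) for FSK and for PMA; dotted lines mark 2-fold. Each transcript lies on the same side of 0 as its gene, with ENST00000451238.1 of TFPI2 further from 0 than the gene in both panels.

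The authors' deposited table tests each transcript against control. The 5 libraries hold 1 per group, and the dispersion behind its p-values is not stated in its headers. The adjusted p-values are given as deposited, and they do not measure spread between replicates of these groups. By that table SERPINB2's ENST00000299502.8 had a log2 fold change of 7.58 with PMA at an adjusted p of 0.000195. TFPI2's ENST00000222543.9 had 6.21 with PMA at an adjusted p of 0.00112 and 4.49 with FSK at 0.0172 in the authors' deposited table. The other TFPI2 transcript, ENST00000451238.1, had 7.28 with PMA at an adjusted p of 0.000351 and 5.28 with FSK at 0.00664 in the authors' deposited table. For PLAT's ENST00000220809.8 the authors' deposited table gives 3.28 with PMA at an adjusted p of 0.122 and -2.71 with FSK at 0.289. The other members past 2-fold by gene did not reach an adjusted p of 0.05 in the authors' deposited table. For PLAUR with PMA, the authors' deposited table gives 2.53 for both ENST00000339082.7 and ENST00000340093.7, at adjusted p-values of 0.367 and 0.365. For SERPINE2 with FSK, the authors' deposited table gives 1.90 for ENST00000409304.5 at an adjusted p of 0.732 and 1.99 for ENST00000258405.8 at 0.670. For PLAU with FSK, it is -1.61 for ENST00000372764.3 at an adjusted p of 0.952 and -2.11 for ENST00000446342.5 at 0.593 in the authors' deposited table. For TFPI with FSK, it is 1.43 for ENST00000233156.8 at an adjusted p of 1 and 1.93 for ENST00000392365.5 at 0.716 in the authors' deposited table.

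Levels of different genes were compared per length, as TPM computed with GENCODE lengths. Each transcript's counts were divided by its length, scaled to the same total in every library and summed per gene. Only transcripts with an identifier in GENCODE 29, 90.9% of them, were included. In control SERPINE2 was the most abundant member at 464 TPM, then PLAU at 237, TFPI at 111, PLAUR at 54.5, PLAT at 7.75, TFPI2 at 3.72 and SERPINB2 at 1.29. With FSK the order began with SERPINE2 at 1737 TPM and TFPI at 310, and TFPI2 at 95.4 lay above PLAU at 74.5 and PLAUR at 60.1. With PMA 6 of the 7 genes lay between 219 and 392 TPM, TFPI2 the highest, and PLAT was at 79.0. Neighbours in these orders have no replicate spread to be judged by.

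The balance between members can be read on the same scale. PLAU exceeded PLAT 31.2-fold with FSH, 42.1-fold with FSK, 31.6-fold with SC79, 4.15-fold with PMA and 30.6-fold in control, in TPM. SERPINE2 exceeded PLAU 2.31-fold with FSH, 23.3-fold with FSK, 2.82-fold with SC79, 1.12-fold with PMA and 1.95-fold in control. FSK is thus the library richest in SERPINE2 relative to PLAU, and PMA the one richest in PLAT relative to PLAU. PLAU over its receptor PLAUR was 3.84-fold with FSH, 1.24-fold with FSK, 3.51-fold with SC79, 0.913-fold with PMA (that is, below it) and 4.35-fold in control. TFPI over TFPI2 was 20.1 with FSH, 3.25 with FSK, 28.6 with SC79, 0.558 with PMA and 29.8 in control.

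**Figure D5:**
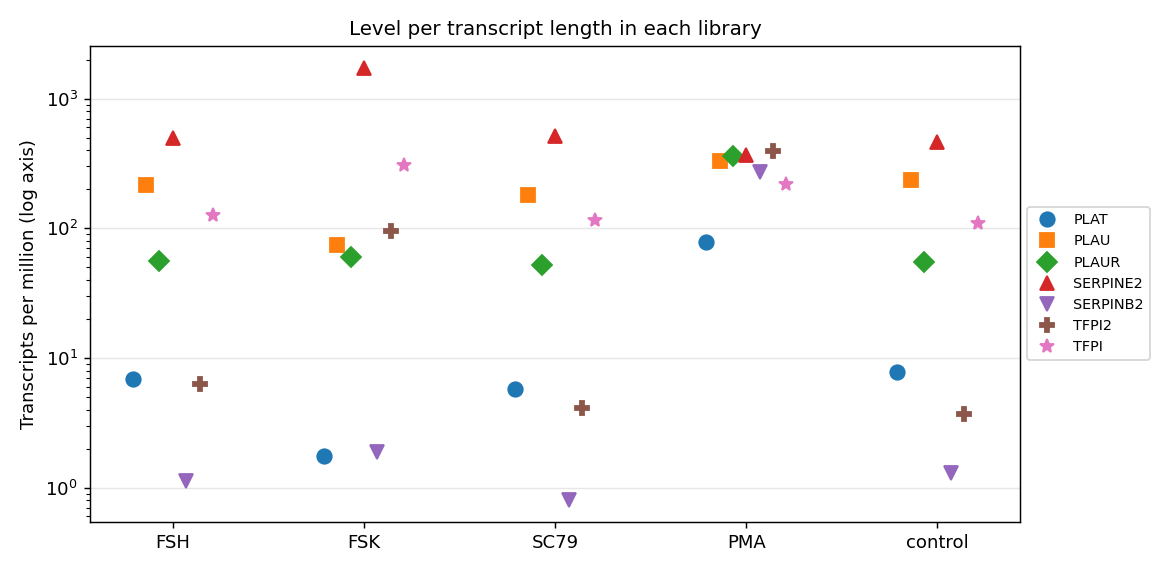
TPM (log axis) of the 7 genes in the FSH, FSK, SC79, PMA and control libraries, offset sideways for legibility. With FSK the genes range from 1.77 for PLAT to 1737 for SERPINE2, and with PMA all but PLAT lie between 219 and 392.

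Other genes of the plasminogen system were taken as a list of 26, of which 16 to 18 were compared with each treatment. With FSK 3 of 18 were at least 2-fold higher, beside 4.13% of all genes, and 2 of 18 lower, beside 5.43%, with a median log2 ratio of 0.22, against 0.01 over all genes. With PMA 2 of 17 were higher, beside 3.64% of all genes, and 2 of 17 lower, beside 3.62%, with a median of 0.15, against -0.01 over all genes. PLG, the plasminogen gene itself, was low throughout, between 14.8 scaled counts with PMA and 27.1 with FSH, with 15.6 in control.

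With FSK, the matrix protein VTN, which binds PLAUR, was at a log2 ratio of 2.82, and its level was 7300.1 scaled counts, beside 1033 in control. SERPINI1 (neuroserpin, an inhibitor of PLAT) was at 1.94 and SPINT1, a Kunitz inhibitor of membrane proteases, at 1.74. S100A10, which with ANXA2 forms a plasminogen receptor, was at -1.36 with FSK and -1.19 with PMA, and ITGB3, the beta chain of the vitronectin receptor, at -1.38 with FSK. With PMA, CTSB, a cysteine protease that can activate pro-urokinase, was at 1.35, SERPINI1 at 1.64 and SORL1, an endocytic receptor, at -1.86. With FSH 1 of 17 genes passed 2-fold, SPINT1 at 1.26, beside 0.305% of all genes higher, and 0 passed when only the most abundant transcript of each gene was used. With SC79 0 of 16 passed, beside 0.224% of all genes higher and 0.0401% lower.

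The coagulation list of 20 genes had 8 to 10 compared against control. With FSK 0 of 9 passed 2-fold, where 4.13% of all genes were higher and 5.43% lower. F3, the tissue factor that TFPI inhibits, was at 16993 scaled counts with FSK and at 17719.9 in control. With PMA 2 of 10 were higher, beside 3.64% of all genes, and 1 of 10 lower, beside 3.62%: SERPINA1, alpha-1 antitrypsin, was at a log2 ratio of 4.39, THBD, the thrombin receptor thrombomodulin, at 4.30 and SERPINA5, the protein C inhibitor, at -1.10. With FSH 0 of 8 passed, beside 0.305% of all genes higher and 0.104% lower. With SC79 0 of 9 passed, beside 0.224% higher and 0.0401% lower. In so short a list, counts of 0 lie near these shares. Of 16 other serpins only 4 or 5 were compared. With PMA 1 of 5 was higher, beside 3.64% of all genes: SERPINB8, an intracellular serpin, at 1.26. With each of the other treatments 0 of 4 passed, beside the shares of all genes just given for them.

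For each member the genes with the nearest set of 4 log2 ratios to control were found among 12022 other protein-coding genes, by Euclidean distance over the 5 libraries. All 4 ratios share the control library, so this is a description of pattern only. TFPI was nearest to IGF1R, a growth factor receptor, at a distance of 0.109, then RHBDD2 at 0.122 and RASSF8 at 0.136. PLAUR was nearest to ZPLD1 at 0.218, APCDD1L at 0.304 and TMEM158 at 0.336. PLAU was nearest to MCM5, a subunit of the replicative helicase, at 0.233, CHST15, a sulfotransferase, at 0.273 and SMTN, an actin-binding protein, at 0.273. SERPINE2 was nearest to FAT1, an atypical cadherin, at 0.281, ID2, an inhibitor of basic helix-loop-helix factors, at 0.322 and PCDH11X, a protocadherin, at 0.344.

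For PLAT, TFPI2 and SERPINB2 the nearest genes lay at larger distances than for the other 4 members. PLAT was nearest to WNT7B, a Wnt ligand, at 0.654, MALL at 0.918 and MGLL, a monoglyceride lipase, at 1.13. TFPI2 was nearest to STC1, a secreted glycoprotein hormone, at 0.751, whose log2 ratios were 1.02 with FSH, 4.50 with FSK, -0.03 with SC79 and 6.18 with PMA. ABCA13 at 1.71 and CXCR4, a chemokine receptor, at 1.90 followed it. For SERPINB2 the nearest genes were IL24, a cytokine, at 2.33, FAP, a cell-surface protease, at 2.46 and MMP1, the interstitial collagenase, at 2.72. Among the members themselves SERPINE2 and TFPI were nearest to each other at 1.34, and PLAU and TFPI2 farthest apart at 8.65.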

How the data were processed

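Estimated counts per Ensembl transcript were deposited for each library, with "est_counts" in the headings, per the file headers. Trimmomatic, kallisto and edgeR are named, without versions, per the submitters' processing notes; for the genome build and index, nothing is stated in the labels or headers. The deposited normalized signal equals these estimated counts times 1 constant per library (0.934 to 1.03). The authors' deposited table gives log2 fold changes and p-values per transcript, with a dispersion that its headers do not state. Of 179973 transcripts, 89.6% were in GENCODE 29 (GRCh38) by identifier and version.

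Counts were summed per gene name and scaled by edgeR 4.0.16 TMM (R 4.3.3) to the mean effective library size. They were rounded only for the scaling factors and for the counting intervals. Rows without a gene name (303 transcripts, at most 0.0680% of counts) were left out. Planned tests assumed counts per gene, and the tables hold them per transcript. A pseudocount of 1 was added to both levels for log2 ratios and none for folds and intervals. Calculations used Python 3.11.15, numpy 2.4.6, pandas 2.3.3 and scipy 1.17.1; plots used matplotlib 3.10.9. Calling was tested on simulated counts that held counting error only, so that test does not cover spread between cultures. TPM values used annotated, not effective, lengths.

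The genes and lists were chosen with earlier results of these data known. Outside the 7 genes, named genes were list members past 2-fold against control, PLG, F3, cell markers and the 3 nearest in pattern; F3 and the cell markers given singly were chosen after their values were seen. The result for 1 planned gene is not reported here, and the list counts leave it out.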

Additional observations from a re-analysis of the deposited data

Results flagged for a closer look

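The authors' deposited table also holds a comparison of LH with control, and no LH library is among the 5 used here, so these values could not be recomputed. In it the SERPINB2 transcript ENST00000299502.8 had a log2 fold change of 4.43 at an adjusted p of 0.0171. The TFPI2 transcript ENST00000222543.9 had 4.56 at an adjusted p of 0.0131 in the authors' deposited table, and the TFPI2 transcript ENST00000451238.1 had 5.47 at 0.00407. They were singled out because they are signals in data that the comparisons above do not use. In the same authors' deposited table the FSH comparison gives 0.18 for ENST00000222543.9, 1.46 for ENST00000451238.1 and -0.20 for ENST00000299502.8, each at an adjusted p of 1.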

How the results depend on the processing

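No paired analysis was possible because each group has 1 library, and for the same reason no library could be left out. The number of members past 2-fold stayed within 1.5 times its value in all 6 comparisons under DESeq2 1.42.0 size factors, total counts, the authors' normalized signal, a pseudocount of 5, a minimum of 20 counts or none, protein-coding transcripts only, the most abundant transcript only, and a 1.5-fold limit. All 20 member ratios past 2-fold stayed past it with the same sign under the alternative scalings, the pseudocount of 5 and the choices of transcripts. Of 252 alternative log2 ratios 8 changed sign, none of them for a ratio past 2-fold. With the authors' normalized signal, whose library totals are not equalised, the median of all genes shifted, in the ratios to control, by -0.15 with FSH, -0.17 with FSK, -0.27 with SC79 and -0.24 with PMA. There SERPINE2 and TFPI turned to -0.04 and -0.02 for FSH and to -0.12 and -0.25 for SC79, and PLAUR to -0.13 for FSH and -0.02 for FSK. With the most abundant transcript only, PLAUR for FSH turned to -0.13 and TFPI for SC79 to -0.05. Lists of other genes depended on the count minimum: with a minimum of 20, the coagulation list had 3 genes past 2-fold in place of 0 for FSK and 8 in place of 3 for PMA. The 1 call of the plasminogen list with FSH, SPINT1, was lost with the most abundant transcript only. These settings for the lists were chosen after seeing the data. Depth limits SERPINB2 outside PMA and PLAT with FSK, each under 100 counts.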
